A study of Homo sapiens with 6 samples.

Results

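*OLR1* and 8 other scavenger receptor genes were followed in CCD18Co, a fibroblast cell line from normal human colon, after silencing of *LTBP2*, the gene of a secreted latent TGF-beta binding protein of the extracellular matrix. The genes were picked by name, since *OLR1* and *COLEC12* differed between the groups in these libraries and the other 7 belong to the same families of receptors. All 9 were found among the 60663 genes of the count table by their symbol. Cells were transfected for 6 h with an siRNA pool against *LTBP2* (siLTBP2) or with a pool made to target no gene (siNT), and the cells were harvested for RNA sequencing at 48 h, with 3 libraries of each group. All libraries carry a transfected siRNA pool and come from 1 cell line, and nothing in the labels says that replicates were separate cultures, so p-values measure only the spread between these libraries, which may be technical. Only 1 pool was used against *LTBP2*.

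Scavenger receptors are membrane proteins that bind modified lipoproteins, polyanions, dying cells or microbes and take them up. They are grouped into classes by their structure, and they are best known from macrophages, endothelium and liver. *OLR1* encodes LOX-1, a C-type lectin-like receptor (class E) for oxidized low-density lipoprotein that is known to be inducible by inflammatory signals. *MSR1*, *SCARA3*, *SCARA5* and *COLEC12* belong to class A, whose members carry collagen-like or coiled-coil stretches. *CD36*, *SCARB1* and *SCARB2* form class B, with a loop held by membrane spans at both ends, and *STAB1* is a large class H receptor of sinusoidal endothelium and some macrophages.

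The libraries held from 44663424 to 53576899 reads assigned to genes. Levels are given as CPM (counts scaled to a common library size) after TMM, edgeR's correction for library composition. *LTBP2* itself fell from 23.1 ± 1.89 CPM to 7.03 ± 1.39 CPM (SD, n = 3; log2 fold change -1.72, adjusted p = 6.6e-05 in edgeR's quasi-likelihood test), so 30.4% of its siNT level remained. The groups of *LTBP2* values did not overlap (p = 0.1 in a two-sided exact permutation test, which 3 against 3 libraries cannot go below). All 10 fibroblast markers were at 1 CPM or more in every library, with a summed level of 9959 to 13222 CPM in siNT and 10098 to 14431 CPM in siLTBP2. Of 10 myeloid markers none reached 1 CPM in every library, and their summed level was 0.77 to 1.11 CPM in siNT and 1.47 to 2.69 CPM in siLTBP2. Of 10 endothelial markers 2 reached it, with sums of 75.1 to 92.4 CPM in siNT and 69.1 to 85.4 CPM in siLTBP2. Of 10 epithelial markers 2 reached it, with sums of 40.5 to 52.9 CPM in siNT and 86 to 99.6 CPM in siLTBP2, and *KRT20* was at 0 in every library. *KRT18* alone carried this difference (36.4 CPM in siNT, 80.8 CPM in siLTBP2), and *EPCAM* and *CDH1* were near 0. The endothelial sum was mostly *TEK* (74.2 CPM in siNT, 68 CPM in siLTBP2), while *TIE1* rose from 1.08 to 4.39 CPM (log2 fold change 2.01, adjusted p = 0.002 by the edgeR test). *CSF1R* was the largest part of the myeloid sum (0.696 CPM in siNT, 1.32 CPM in siLTBP2, log2 fold change 0.92, adjusted p = 0.03 by the edgeR test). Adipocyte and platelet markers, whose cells carry *CD36*, summed to at most 0.19 CPM, and 5 of these 10 genes, *ADIPOQ* and *PF4* among them, were at 0 everywhere. The part of other cell types in the results below was not tested.

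*OLR1* (ENSG00000173391) has 6 exons in its canonical transcript and is on chromosome 12 (GRCh38, minus strand, 10158301 to 10172138). It was at 21.8, 27.7 and 21.9 CPM in siNT replicates 1 to 3. In siLTBP2 it was at 5.07, 5.56 and 5.9 CPM. The groups were far apart, and the siLTBP2 libraries lay close together, with a coefficient of variation of 7.58% against 14.3% in siNT. The mean level was 23.8 ± 3.4 CPM for siNT against 5.51 ± 0.418 CPM for siLTBP2 (SD, n = 3), so that 23.2% of the siNT level was measured after silencing. The log2 fold change was -2.11 with a standard error of 0.13, a 4.31-fold lower level. With any 1 library left out it stayed between -2.17 and -1.98. These values are a description, since *OLR1* was chosen for this difference. From RNA of whole cultures, fewer cells with the transcript and less transcript per cell cannot be told apart.

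*COLEC12* (ENSG00000158270), a class A receptor with a collagen-like stalk and a C-type lectin domain that binds sugars and oxidized lipoprotein, is found on chromosome 18 (minus strand, 316737 to 500722). It was at 48.9, 47 and 29.5 CPM in siNT replicates 1 to 3 and at 22.2, 21.4 and 10.3 CPM in the siLTBP2 replicates. Replicate 3 was the lowest library of each group, and the highest siLTBP2 library was below the lowest siNT library by a smaller distance than the siNT libraries spanned. Replicate 3 was the lowest in both groups in 19.4% of the 16920 genes tested. The fibroblast markers together were also lowest in replicate 3 of each group, at 9959 CPM for siNT and 10098 CPM for siLTBP2, and the part of this in the *COLEC12* values was not tested. The mean was 41.8 ± 10.7 CPM for siNT against 17.9 ± 6.63 CPM for siLTBP2 (SD, n = 3), with a log2 fold change of -1.22 and a standard error of 0.27. Each siLTBP2 library held 45.4%, 45.5% and 35% of the siNT library of the same number, although the numbers are not known to pair the libraries. The spread of *COLEC12* in siNT, a coefficient of variation of 25.6%, was larger than that of 98.5% of the 9397 genes with a mean of at least 10 CPM, whose median was 8.28%.

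Deregulated here means an adjusted p below 0.01, by edgeR's quasi-likelihood test, together with a change of more than 2-fold. Of the 16920 genes tested 2.57% met this, 1.27% as lower and 1.29% as higher. Of the 6 members tested, 2 were called, *OLR1* and *COLEC12*, both lower. As the members were chosen with this contrast known, nothing is read from the count. *COLEC12* was just inside the threshold on p, with an adjusted p of 0.0096, and the member nearest outside the fold threshold was *SCARA3*, with a log2 fold change of -0.70. In this fit, which has no replicate block, the call of *COLEC12* rested on single libraries. It was lost without siNT replicate 1 (log2 fold change -1.10), siNT replicate 2 (-1.13) or siLTBP2 replicate 2 (-1.37) on the p, and without siLTBP2 replicate 3 (-0.94) on the fold. The median log2 fold change of the 6 members was -0.57, beside -0.01 over all genes tested. Of the 6, 4 had an adjusted p below 0.05 and were lower (9.51% of all genes tested), and for *SCARB1* this was lost in 4 of the 6 fits that left out 1 library. In the same 4 the groups did not overlap, as in 37% of all genes tested, 18.3% in the lower direction.

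**Figure D1:**
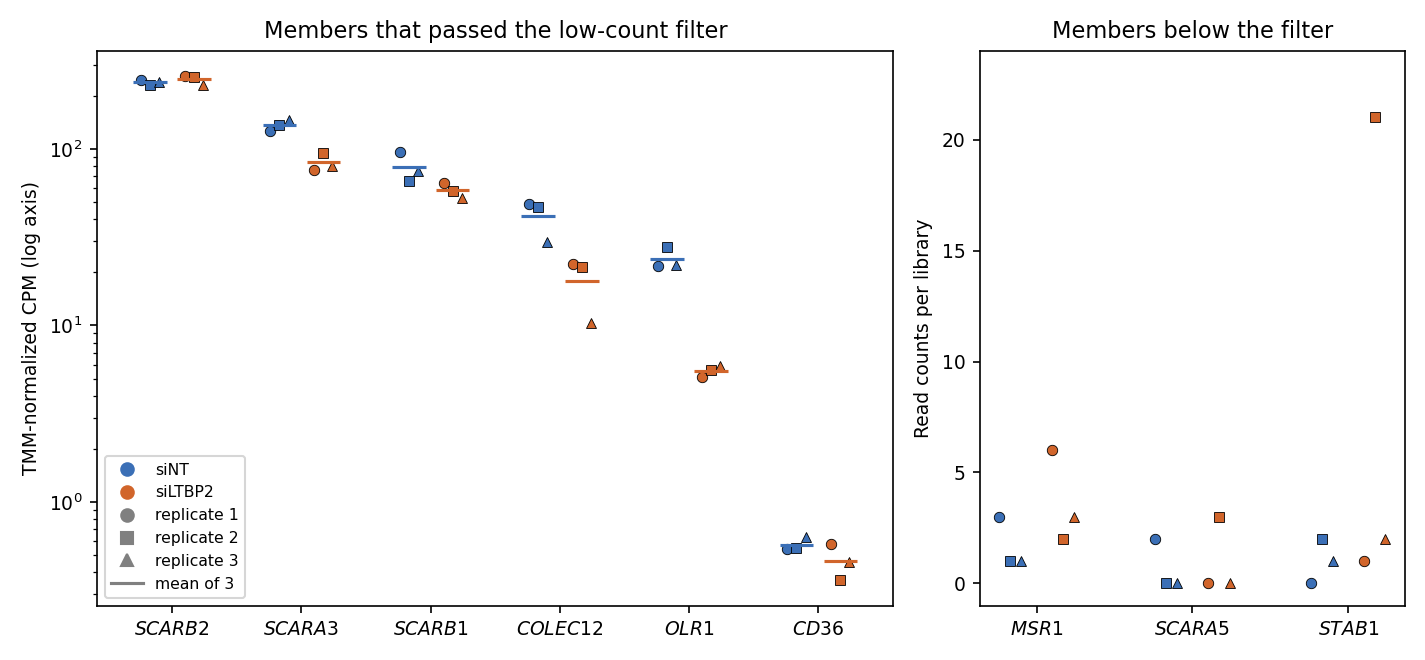
Levels of the 9 scavenger receptor genes in each library, with TMM-normalized CPM on a log axis for the 6 that passed the low-count filter (left) and read counts for the other 3 (right). Colours mark the group, symbols the replicate number and bars the mean of 3 libraries. The 3 siLTBP2 libraries lie below the 3 siNT libraries for *OLR1*, *COLEC12*, *SCARA3* and *SCARB1*, and 1 siLTBP2 library stands at 21 counts for *STAB1*.

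The plot of the members by library shows that the other class A genes divided into 1 abundant gene and 2 near the limit of detection. *SCARA3* (ENSG00000168077, chromosome 8), a receptor-like protein induced by oxidative stress, was at 126, 136 and 146 CPM in siNT and at 76.1, 95.1 and 80.2 CPM in siLTBP2. The groups did not overlap, and 61.7% of the siNT level was measured in siLTBP2. Its log2 fold change was -0.70 with a standard error of 0.10, and it lay between -0.80 and -0.63 with 1 library left out. *MSR1* (ENSG00000038945, chromosome 8), the macrophage scavenger receptor, had 3, 1 and 1 counts in siNT replicates 1 to 3 and 6, 2 and 3 in those of siLTBP2. *SCARA5* (ENSG00000168079, chromosome 8), a receptor for ferritin, had 2, 0 and 0 counts in siNT and 0, 3 and 0 in siLTBP2. A count of 0 allows up to 3 counts, or 0.0556 to 0.0688 CPM in these libraries, counting error alone considered. No change of *MSR1* or *SCARA5* was detectable at this depth.

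In class B, the siLTBP2 libraries of *SCARB1* were below those of siNT, while the groups overlapped for *SCARB2* and *CD36*. *SCARB1* (ENSG00000073060, chromosome 12, minus strand, 124776856 to 124882668) encodes SR-BI, which takes cholesteryl esters from high-density lipoprotein. It was at 96.6, 66.1 and 75.2 CPM in siNT and at 63.9, 57.7 and 52.8 CPM in siLTBP2. The groups did not overlap, but the gap between siNT replicate 2 and siLTBP2 replicate 1 was narrow, and siNT replicate 1 stood above the other siNT libraries. Its log2 fold change was -0.45 with a standard error of 0.13, and it was -0.29 without siNT replicate 1. Its adjusted p, 0.039 in edgeR's quasi-likelihood test, was 0.13 without that library, 0.056 without siNT replicate 3, and 0.11 and 0.085 when replicate 2 or 3 of siLTBP2 was left out. The range over all alternatives was 4.1e-05 to 0.13. The spread of *SCARB1* in siNT, a coefficient of variation of 19.8%, was larger than that of 95.6% of the genes with a mean of at least 10 CPM.

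*SCARB2* (ENSG00000138760, chromosome 4, minus strand, 76158737 to 76234536) encodes LIMP-2, a lysosomal membrane protein that carries glucocerebrosidase to lysosomes. It was at 246, 230 and 239 CPM in siNT and at 259, 257 and 230 CPM in siLTBP2, and the groups overlapped. The log2 fold change was 0.06 with a standard error of 0.09, and it lay between 0.03 and 0.12 with 1 library left out. The siNT libraries differed little, with a coefficient of variation of 3.43%. *CD36* (ENSG00000135218, chromosome 7, plus strand, 80369575 to 80679277), a fatty acid and thrombospondin receptor, was at 0.541, 0.547 and 0.631 CPM in siNT and at 0.574, 0.359 and 0.455 CPM in siLTBP2. These levels rest on 86 counts in the 3 siNT libraries and 66 in the 3 siLTBP2 libraries, and the groups overlapped. The log2 fold change of -0.31 had a standard error of 0.28, and it was -0.49 without siLTBP2 replicate 1 and -0.17 without siLTBP2 replicate 2. A change of this size was not detectable at this depth.

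*STAB1* (ENSG00000010327, chromosome 3, plus strand, 52495338 to 52524495) had 0, 2 and 1 counts in siNT and 1, 21 and 2 counts in siLTBP2. Of its 24 counts in siLTBP2, 21 came from replicate 2, and the other siLTBP2 libraries were at the level of siNT. The summed myeloid markers were at 2.69 CPM in that library, the highest of the 6, and the summed endothelial markers at 85.4 CPM, within the range of the other libraries. The myeloid markers *TYROBP* (0, 7 and 0 counts in siLTBP2) and *PTPRC* (1, 8 and 1) were highest in that library. So were *SPI1* (0, 11 and 0), *CD74* (2, 22 and 8) and, at 2 counts each, *LYZ* and *AIF1*. The markers *CD14*, *FCER1G*, *ITGAM* and *CSF1R* were not. Of other macrophage receptor genes, picked out after their counts were seen, *MRC1* had 0, 7 and 3 counts in siLTBP2 and 0 in each siNT library, and *CD163* had 10, 2 and 4 in siNT and 1, 11 and 5 in siLTBP2. Others were not highest in that library, with 6, 2 and 3 counts of *MSR1* and 14, 12 and 4 of *CD68* in siLTBP2. *MARCO* had 0, 1 and 0 there. The part of such cells in the 21 counts was not tested. The 3′ end of *STAB1* overlaps *NT5DC2* on the other strand, which had 2962, 3688 and 3814 counts in the siLTBP2 libraries. Reads of these genes over the shared stretch cannot be told apart without the strand setting.

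Levels of different genes were compared per kilobase of exon. In siNT, over the union of all exons, *SCARA3* was at 33.7 ± 2.53 CPM per kilobase (SD, n = 3), *SCARB2* at 12.3 ± 0.422 and *OLR1* at 7.79 ± 1.11. *COLEC12* followed at 5.69 ± 1.46 CPM per kilobase and *SCARB1* at 5.33 ± 1.05. The siNT libraries of *COLEC12* (4.01 to 6.66 CPM per kilobase) and *SCARB1* (4.44 to 6.49) overlapped, so these neighbours did not differ beyond their spread, while the lowest *OLR1* library (7.12) was above both. *CD36* was at 0.0526 ± 0.00462 CPM per kilobase, above 1.81% of the tested coding genes, where *OLR1* was above 58.7% and *SCARA3* above 91.2%. *MSR1* (0.00442 CPM per kilobase), *SCARA5* (0.00329) and *STAB1* (0.00186) rest on 5 or fewer counts over the 3 siNT libraries, and no order among them is given.

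The order depended on the length used. Over the canonical transcript, *SCARB2* (50.8 ± 1.74 CPM per kilobase) came before *SCARA3* (35.8 ± 2.69), *SCARB1* (23.3 ± 4.6), *OLR1* (9.69 ± 1.39) and *COLEC12* (7.3 ± 1.87; SD, n = 3). The union of exons of *SCARB1* spans 14887 bases and its canonical transcript 3405 bases, and for *SCARB2* these are 19388 and 4694 bases. For *OLR1* they are 3057 and 2456 bases. In siLTBP2, over the union of exons, *OLR1* was at 1.8 ± 0.137 CPM per kilobase, within the range of *COLEC12* (1.4 to 3.02) and below each library of *SCARB1* (3.54 to 4.29). *OLR1* was thus ranked the third of the 9 genes in siNT and the fifth in siLTBP2 on this scale.

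**Figure D2:**
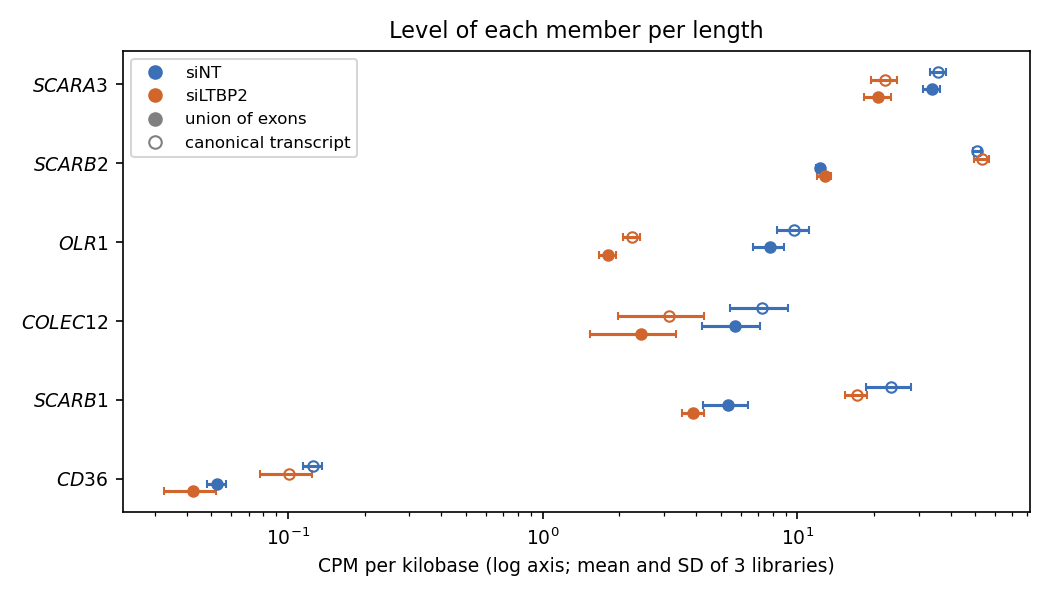
Mean level of the 6 members that passed the low-count filter, in CPM per kilobase on a log axis, with the SD of 3 libraries as bars. Filled points use the union of exons and open points the canonical transcript, and colours mark the group. On the union scale *OLR1* moves from 7.79 in siNT to 1.8 in siLTBP2, while *SCARB2* stays at 12.3 and 12.8.

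*OLR1* sits in the natural killer gene complex of chromosome 12p13, among other genes of C-type lectin-like receptors. The nearest of these on the same strand, *CLEC7A* (28 kb away, the receptor Dectin-1), had 2, 1 and 1 counts in siNT and 0, 1 and 1 in siLTBP2. *CLEC1A*, 46.7 kb away, had at most 1 count in any library. Of 45 other genes within 500 kb of *OLR1* in the table, 10 were tested, none was deregulated, and 3 were higher and 1 lower by edgeR's quasi-likelihood test (adjusted p below 0.05, with 9.76% of all genes tested higher and 9.51% lower). The higher ones were *CLEC2B* (log2 fold change 0.54), *MAGOHB* (0.37) and *STYK1* (1.71), and the lower one was *GABARAPL1* (-0.34, adjusted p = 0.016), an autophagy gene 40.3 kb away. *CLEC2B*, a lectin-like gene 289 kb away, rose from 45.1 ± 3.88 to 65.5 ± 7.06 CPM (SD, n = 3, adjusted p = 0.0053), while *OLR1* was lower. Of a list of 25 genes of the 12p13 complex, 7 were tested, with 4 higher (57.1%, beside 9.76% of all genes tested) and 1 lower (14.3%, beside 9.51%), and *KLRG1*, an inhibitory lymphocyte receptor gene whose mean went from 0.139 to 0.489 CPM, was deregulated (log2 fold change 1.79). The other 3 higher genes and the lower one are those of the 500 kb count, so the list is not a separate result. *STYK1* rests on 25 counts in siNT and 81 in siLTBP2. Leaving out any 1 of the 6 libraries left 3 genes of that list past the threshold.

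*TMEM52B* overlaps the 5′ end of *OLR1* on the other strand and had 11, 5 and 10 counts in siNT and 2, 0 and 5 in siLTBP2. These counts are few beside the 1006, 1369 and 1182 counts of *OLR1* in siNT and the 221, 263 and 311 in siLTBP2. Whether the counting used strand is not given in the sources used here, so reads of *OLR1* and *TMEM52B* over the shared stretch cannot be told apart. A pair of immune receptor genes of the complex, picked out after their counts were seen, also had fewer counts in siLTBP2, namely *CLEC12A* (10, 6 and 11 in siNT, 2, 1 and 0 in siLTBP2) and *KLRF1* (6, 8 and 9 in siNT, 2, 1 and 3 in siLTBP2). None of these 3 genes passed the low-count filter.

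Around *COLEC12*, 38 other genes of the table overlap it or lie within 500 kb, and 11 of them were tested. None was deregulated, and *YES1* (log2 fold change 0.29, adjusted p = 0.041 by the same edgeR test) was higher at an adjusted p below 0.05. The closest tested coding gene, *THOC1*, 48.7 kb away and on the same strand, had a log2 fold change of 0.12 with a standard error of 0.12. A noncoding gene within *COLEC12* on its own strand (ENSG00000265477) had 8, 4 and 5 counts in siNT and 1, 2 and 2 in siLTBP2.

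Genes were also ranked by how closely their log2 CPM, taken relative to the siNT mean of the gene, followed that of *OLR1* across the 6 libraries. The measure was the root mean square difference over the 6 libraries, and genes with a symbol and a mean of at least 1 CPM were ranked. The 5 closest to *OLR1* were *DPP4-DT* and *IL6* (both 0.20), *DKK2* (0.21), *PEPD* and *PPT1* (both 0.24). *IL6*, an inflammatory cytokine, was at 25, 32.4 and 32.7 CPM in siNT and at 6.4, 7.91 and 9.55 CPM in siLTBP2. *PPT1*, a lysosomal thioesterase, was at 184, 152 and 182 CPM in siNT and at 31.3, 40.9 and 37.4 CPM in siLTBP2. Within siNT the libraries stood in different orders, *DKK2* being lowest in replicate 3, *PPT1* in replicate 2 and *IL6* in replicate 1, while *OLR1* was highest in replicate 2.

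For *COLEC12*, the 5 closest genes were *ERVMER34-1* (0.07), *BDKRB2* (0.09), *ITGA8* (0.10), *SOX6* (0.11) and *PDZRN3* (0.12). These differences were smaller than those of the genes closest to *OLR1*. In each of the 5, replicate 3 was the lowest library of both groups, as in *COLEC12*. The ranking used these same 6 libraries, so this shared order follows from how the genes were picked. *ITGA8*, an integrin subunit, was at 580, 565 and 390 CPM in siNT and at 298, 286 and 116 CPM in siLTBP2. *SOX6*, a transcription factor gene, was at 54.8, 44.4 and 30.5 CPM in siNT and at 23.3, 19.4 and 11.6 CPM in siLTBP2.

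**Figure D3:**
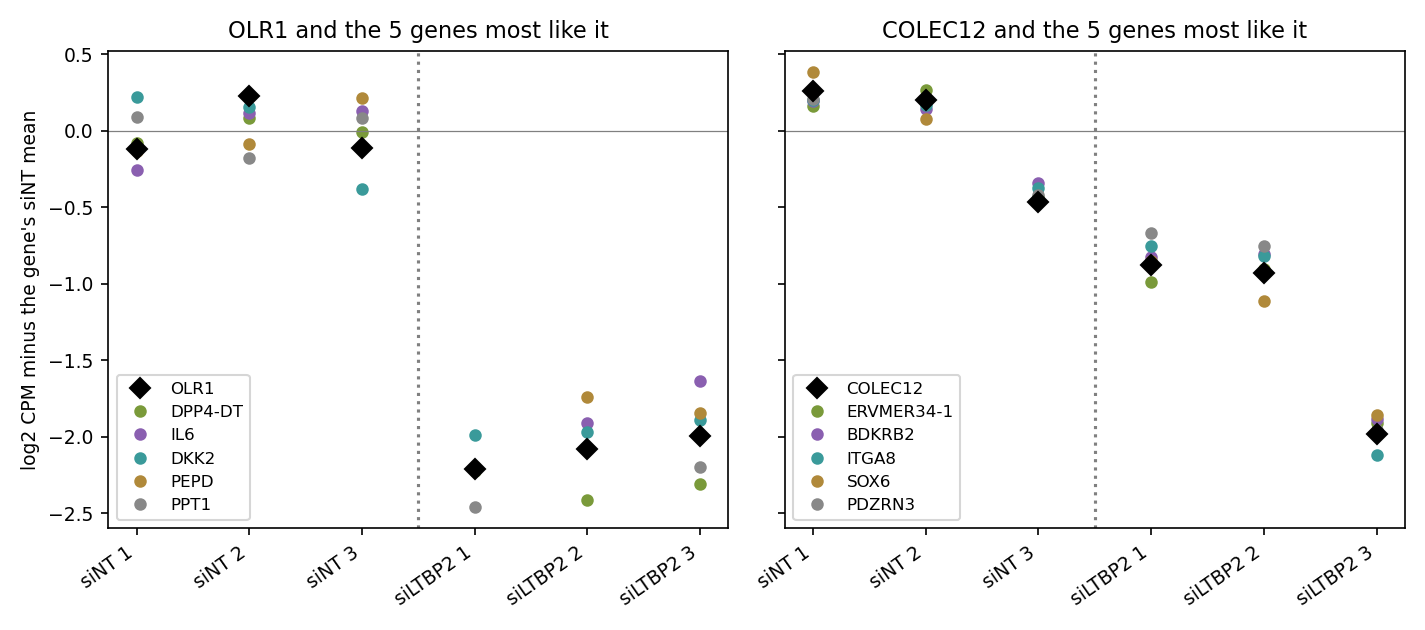
Log2 CPM of *OLR1* (left) and *COLEC12* (right) in each library, relative to the siNT mean of the gene, with the 5 genes closest to each. Black diamonds are *OLR1* and *COLEC12*, coloured points the other genes, and the dotted line parts siNT from siLTBP2. The genes were picked for closeness over these same values, so shared patterns follow from the ranking. The genes around *COLEC12* are low in replicate 3 of both groups, and those around *OLR1* lie between -2.46 and -1.64 in the siLTBP2 libraries (some points are hidden by others).

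The NF-kB pathway turns on inflammatory genes, and LOX-1 is known both as one of its targets and as one of its triggers. Of 30 genes of an NF-kB response list, 23 were tested, and by edgeR's quasi-likelihood test 12 were lower and 0 higher in siLTBP2 (adjusted p below 0.05, which makes 52.2% lower beside 9.51% of all genes tested). The median log2 fold change of the list was -0.43, and 16 of the 23 had one below 0. Among those that did not pass were *NFKBIA* (log2 fold change -0.21), *NFKB1* (0.08), *CXCL8* (0.10), *BIRC3* (0.57) and *CXCL2* (0.77). The list was chosen with earlier results of these data known, and a part of NF-kB in the *OLR1* values was not tested. *LIF*, a cytokine gene of the *IL6* family, fell from 177 ± 9.86 to 65.6 ± 8.97 CPM and *IL6* from 30 ± 4.36 to 7.95 ± 1.57 CPM (SD, n = 3), and both were deregulated, as was *TRAF1* (log2 fold change -1.11), a signalling adaptor. *SOD2*, a mitochondrial antioxidant enzyme, had a log2 fold change of -0.62 (adjusted p = 0.0017). The count of lower genes was 7 when replicate 3 of siNT, or replicate 1 or 2 of siLTBP2, was left out, and in the fit without siLTBP2 replicate 1, 1 gene was higher. In those fits 2582, 2414 and 2158 genes in all had an adjusted p below 0.05, in place of 3261. With a replicate block in the fit, 15 genes of the list were lower and 2 higher, while 6131 genes in all passed. *CCL2*, a monocyte chemokine, had a log2 fold change of -0.90.

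Among 22 scavenger receptors and relatives outside the 9 members, 11 were tested, of which 3 were lower (27.3%, beside 9.51% of all genes tested) and 1 higher (9.09%, beside 9.76%) at an adjusted p below 0.05. *CXCL16*, a class G receptor that is also a chemokine, was deregulated and fell from 2.71 ± 0.206 to 1.23 ± 0.147 CPM (SD, n = 3). *CD44*, the hyaluronan receptor that the nomenclature places in class K, fell from 5575 ± 816 to 3416 ± 280 CPM (edgeR quasi-likelihood adjusted p = 0.0046). *SSC5D* was lower (log2 fold change -0.55) and *SCARF2* higher (0.56). The macrophage receptors *MARCO*, *MRC1* and *CD163* were not among the genes tested. Of 25 collectins and other C-type lectin genes that are not on the 12p13 list, 10 were tested, of which 1 was higher, 10% beside 9.76% of all genes tested (*LAYN*, a hyaluronan receptor gene, log2 fold change 0.36) and 0 were lower, with a median log2 fold change of -0.03. Without siLTBP2 replicate 1 or siLTBP2 replicate 2, 2 genes of this list passed.

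**Figure D4:**
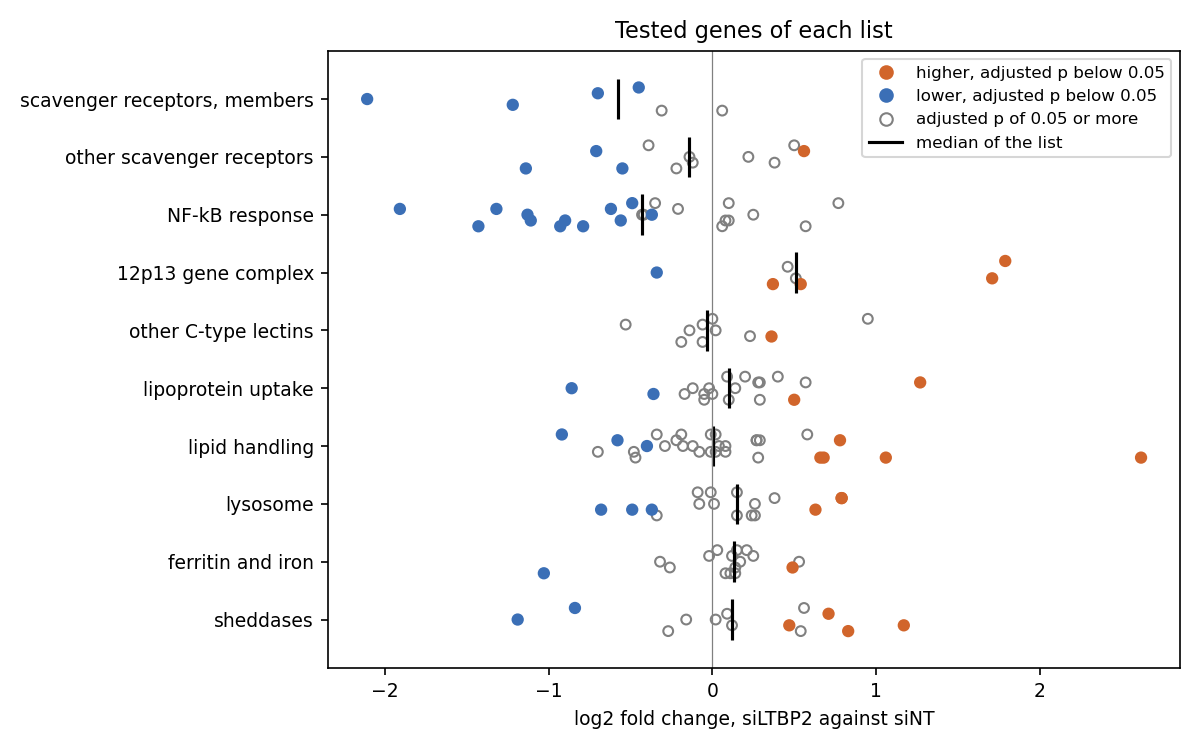
Log2 fold change of siLTBP2 against siNT for the tested genes of the 9 member list and of 9 other gene lists, 1 row per list, each point 1 gene. Filled points had an adjusted p below 0.05 (blue lower, orange higher), open points did not, and black bars are medians. The NF-kB list holds 12 lower and 0 higher genes, and its median is -0.43.

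RNA levels of genes that act beside the receptors in ligand uptake were also compared, while uptake itself was not measured. *VLDLR*, a receptor of lipoproteins rich in triglyceride, was deregulated and rose from 2.91 ± 0.616 to 7.04 ± 0.471 CPM (SD, n = 3, edgeR quasi-likelihood adjusted p = 0.00075), where *OLR1* was lower. Of the 19 tested genes of lipoprotein uptake, 2 were higher and 2 lower, 10.5% each way, near the 9.76% and 9.51% of all genes tested. *LRP3* was among the lower (log2 fold change -0.86). In place of 4 genes, 2 passed when replicate 1 or 3 of siNT or replicate 3 of siLTBP2 was left out, and 1 when replicate 1 or 2 of siLTBP2 was. Of 30 tested genes of lipid handling, 5 were higher (16.7%, beside 9.76% of all genes tested) and 3 lower (10%, beside 9.51%). *ABCA1*, which exports cholesterol, rose from 41.5 ± 7.95 to 86.6 ± 21.7 CPM (SD, n = 3), and *ANGPTL4*, an inhibitor of lipoprotein lipase, had a log2 fold change of 2.62. *SOAT1*, which esterifies cholesterol, was higher too (log2 fold change 0.78). Of the PPAR genes, whose *PPARG* product is known to drive *CD36* in macrophages, *PPARG* was higher (log2 fold change 0.68) and *PPARD* (-0.92) and *PPARA* (-0.58) were lower.

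Lists of genes that work with *SCARB2*, *SCARA5* and *OLR1* are read beside the 9.76% of all genes tested that were higher and the 9.51% that were lower. Beside *SCARB2*, 17 lysosomal genes were tested, of which 3 were higher (*LAMP2*, *CTSL* and *CTSB*, log2 fold changes 0.79, 0.79 and 0.63) and 3 lower (*MITF*, *TFEB* and *GNPTAB*, -0.49, -0.68 and -0.37), 17.6% each way. Beside *SCARA5*, 16 genes of iron and ferritin were tested, with 1 higher (*SLC39A14*, 0.49) and 1 lower (*HMOX1*, the heme oxygenase, -1.03, deregulated), 6.25% each way and below the share of all genes. Without siNT replicate 2, 1 gene of the iron list passed. LOX-1 and the CXCL16 protein can be cut from the cell surface by proteases, and of 13 genes of such sheddases and their regulators, 4 were higher (30.8%) and 2 lower (15.4%). *ADAM17* rose from 76.1 ± 4.14 to 125 ± 7.72 CPM (SD, n = 3), *ADAM12* had a log2 fold change of 1.17 and *MMP14* one of 0.83. *FURIN*, which activates several of these proteases, was lower (-0.84), and the other lower gene was *RHBDF2* (-1.19), whose product carries ADAM17 to the surface.

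The 3′ UTRs of the members were searched for GCACCCA, a word of 7 bases that had been singled out in earlier results of these same libraries because its carriers were lower in siLTBP2, so its presence is a description here. *SCARA3* held 2 copies in the 3′ UTR of its canonical transcript (1667 bases). The 3′ UTRs of the other 8 members held 0 copies, among them *OLR1* (1579 bases) and *COLEC12* (3308 bases). The word was carried by 11.8% of the 12314 tested genes whose 3′ UTR had 50 bases or more. Before the 3′ UTR, the transcripts of *SCARB2* and *STAB1* held 2 copies each and that of *SCARA3* held 1, and those of the other 6 members held 0.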

How the data were processed

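The authors sequenced paired reads of stranded libraries depleted of ribosomal RNA, aligned them to GRCh38 with STAR 2.7.1a in 2 passes, and deposited raw read counts per gene from HTSeq-count 0.11.2, without normalization (tool versions per the submitters' processing notes). The Ensembl release is not given in the sources used here, nor is whether counting used strand. The table holds 60663 genes, 27067 of them at 0 in every library.

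From these counts, edgeR 4.0.16 in R 4.3.3 was used (filterByExpr, TMM, glmQLFit and glmQLFTest, two-sided, Benjamini-Hochberg over the 16920 genes kept, no block). The standard error of a log2 fold change was taken as its size over the root of the F value. Lengths, positions and 3′ UTRs came from GENCODE 44, in which all 9 members have the start given in the table. Profiles were compared on log2 CPM with a prior count of 2. Libraries of a group differed by more than sampling noise (chi-square per degree of freedom 28.01 to 55.05), and counts of 44663424 to 53576899 per library limit the precision for genes of few reads. The steps were tested on simulated data.

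The members and gene lists were chosen with earlier results of these data known. Named were all members, *LTBP2*, in each list the deregulated genes and up to 4 more of lowest adjusted p below 0.05 (not all are printed, and the values of some are not reported here), the 5 genes closest to *OLR1* and to *COLEC12*, and tested genes within 500 kb of them. *TFEB*, *GNPTAB*, *RHBDF2*, single cell type markers, list genes that did not pass and untested neighbours were named after their values were seen. Alternatives were the likelihood ratio test, which the study's methods name, DESeq2 1.42.0, RLE and total-count scaling, 2 other filters, a replicate block, leaving out each library and the length of the canonical transcript.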

Additional observations from a re-analysis of the deposited data

How the results depend on the processing

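*LTBP2* and *OLR1* kept their direction and their call under every alternative run, and no value changed sign. The *COLEC12* call was lost under DESeq2 (log2 fold change -1.22, adjusted p = 0.014) and when 1 CPM in 3 libraries was required (-1.22, adjusted p = 0.015; its adjusted p ran from 8.5e-13 with the replicate block to 0.053 without siNT replicate 2), and with 1 library left out the log2 fold change lay between -1.42 and -0.94. The count of 434 deregulated genes was 680 with no low-count filter and 308 to 405 with 1 library left out. The libraries share replicate numbers 1 to 3. Correlations of their deviations from the group means were 0.298, 0.0832 and 0.428 for libraries of the same number. Those of different numbers ran from -0.391 to 0.103, and each siLTBP2 library was highest with the siNT library of its own number. The same-number values did not all pass 0.1, and the libraries were not taken as pairs, but whether they are pairs was not tested. The standard error of *COLEC12* was 0.09 with a replicate block and 0.27 without it. With the replicate block, 6131 genes in place of 3261 had an adjusted p below 0.05 (2158 to 2781 with 1 library left out), the log2 fold changes of *OLR1* and *COLEC12* were -2.10 and -1.26, and the lists rose to 15 genes for lipid handling, 5 for other C-type lectins, 4 for iron and 10 for lysosome. Other C-type lectins had 2 genes under the likelihood ratio test and 3 with no filter, and the 12p13 genes 3 with the filter of 1 CPM. With 1 library left out, counts were 1 to 3 for lipoprotein uptake, 3 for 12p13, 1 to 2 for other C-type lectins and for iron, and 7 to 11 for NF-kB. The causes were not tested. CPM per kilobase over the canonical transcript moved beyond 1 SD for *MSR1* (0.00955), *CD36* (0.125) and the others whose values for that length are given above, *SCARA3*, *SCARA5* and *STAB1* excepted. Members of few counts are limited by depth.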
